A study of Mus musculus with 6 samples.

Results

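The skeletal muscle fibre genes are 41 genes that encode the contractile, calcium-handling and energy-supplying proteins of voluntary muscle. They were measured in RNA from tibial cartilage of C57BL/6 mice. Every non-control probe whose RefSeq accession belongs to one of the 41 symbols was taken, and each gene was represented by its probe with the highest mean processed signal. All 41 had a probe, 54 probes in all, among 36975 genes or accessions on the array. All 41 were also among the 25480 features kept for testing, which stood well above background on 3 or more of the 6 arrays.

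The study compared 3 control mice with 3 mice of the genotype ADAM10 flox/flox-Col2a1-Cre, called mutants here, on 1 Agilent 1-colour array per mouse. In the mutants, Cre recombinase driven by the Col2a1 promoter, which is active in chondrocytes and not in muscle fibres, acts on floxed alleles of Adam10, a membrane protease. The sources used here give neither the alleles carried by the controls nor the age and sex of the animals. The replicates are separate mice.

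Skeletal muscle fibres are filled with sarcomeres, in which myosin thick filaments pull on actin thin filaments when calcium released from the sarcoplasmic reticulum binds troponin. Fast fibres, slow fibres and immature fibres use different genes for the same parts: each has its own myosin heavy chains, and fast and slow fibres each have their own troponin subunits. Cartilage has no muscle fibres, but tendons and muscles insert next to it on the tibia.

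Signals are log2 values relative to the 75th percentile of the same array, and 6 values are given in the order of controls 1 to 3 and mutants 1 to 3. Levels of different probes cannot be set against each other, so comparisons are between arrays for 1 gene. Adam10 read 1.61, 1.58 and 1.21 in controls and 0.15, -1.70 and 0.31 in mutants, so each mutant was below each control. That held for 3.75% of all tested features. The difference for Adam10 was -1.88 (SE 0.53), with an unadjusted p of 0.0108 and an adjusted p of 0.987 in the limma fit. Of 13 chondrocyte markers, 13 were well above background on all 6 arrays. Their mean log2 signal, each gene centred on its own mean, was lowest on control 1 at -0.35, highest on mutant 2 at 0.39, and between -0.06 and 0.03 on the other arrays. The 6 arrays shared 1 slide and 1 scan session, and the share of spots well above background ran from 62.4% to 65.4%.

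The muscle fibre genes varied from mouse to mouse together, in an order that cut across genotype. Control 1 had the highest signal for 40 of 41 members, where 15.1% of all tested features were highest on that array, and the exception was Pvalb. Mutant 2 had the lowest signal for 36 of 41, where 18.7% of all features were lowest on that array. Both held for 35 members, against 6.18% of all features. Mutants 1 and 3 both lay above controls 2 and 3 for 40 members, with Car3 as the exception. The complete order, from control 1 through mutant 1, mutant 3, control 2 and control 3 to mutant 2, was shared by 21 members, and 13 more differed from it only in the order of controls 2 and 3. The share of all features with mutants 1 and 3 above controls 2 and 3, or with the complete order, was not counted. Below, the common order leaves the order of controls 2 and 3 open.

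The sizes were large. Between control 1 and mutant 2 the median member differed by 4.41 log2 units, or 21.3-fold, while the median of all tested features differed by -0.17. Within the control group, control 1 exceeded control 2 by a median of 3.01 and control 3 by 3.09. Within the mutant group, mutant 1 exceeded mutant 2 by a median of 3.39, and mutant 3 exceeded mutant 2 by 2.71. Controls 2 and 3 were within 0.5 log2 unit of each other for 34 members, with a median step of 0.11. The median step from mutant 1 to mutant 2, mice of the same genotype, was 10.5-fold. In bulk RNA, fewer fibres in a sample and less of a transcript per fibre cannot be told apart.

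**Figure D1:**
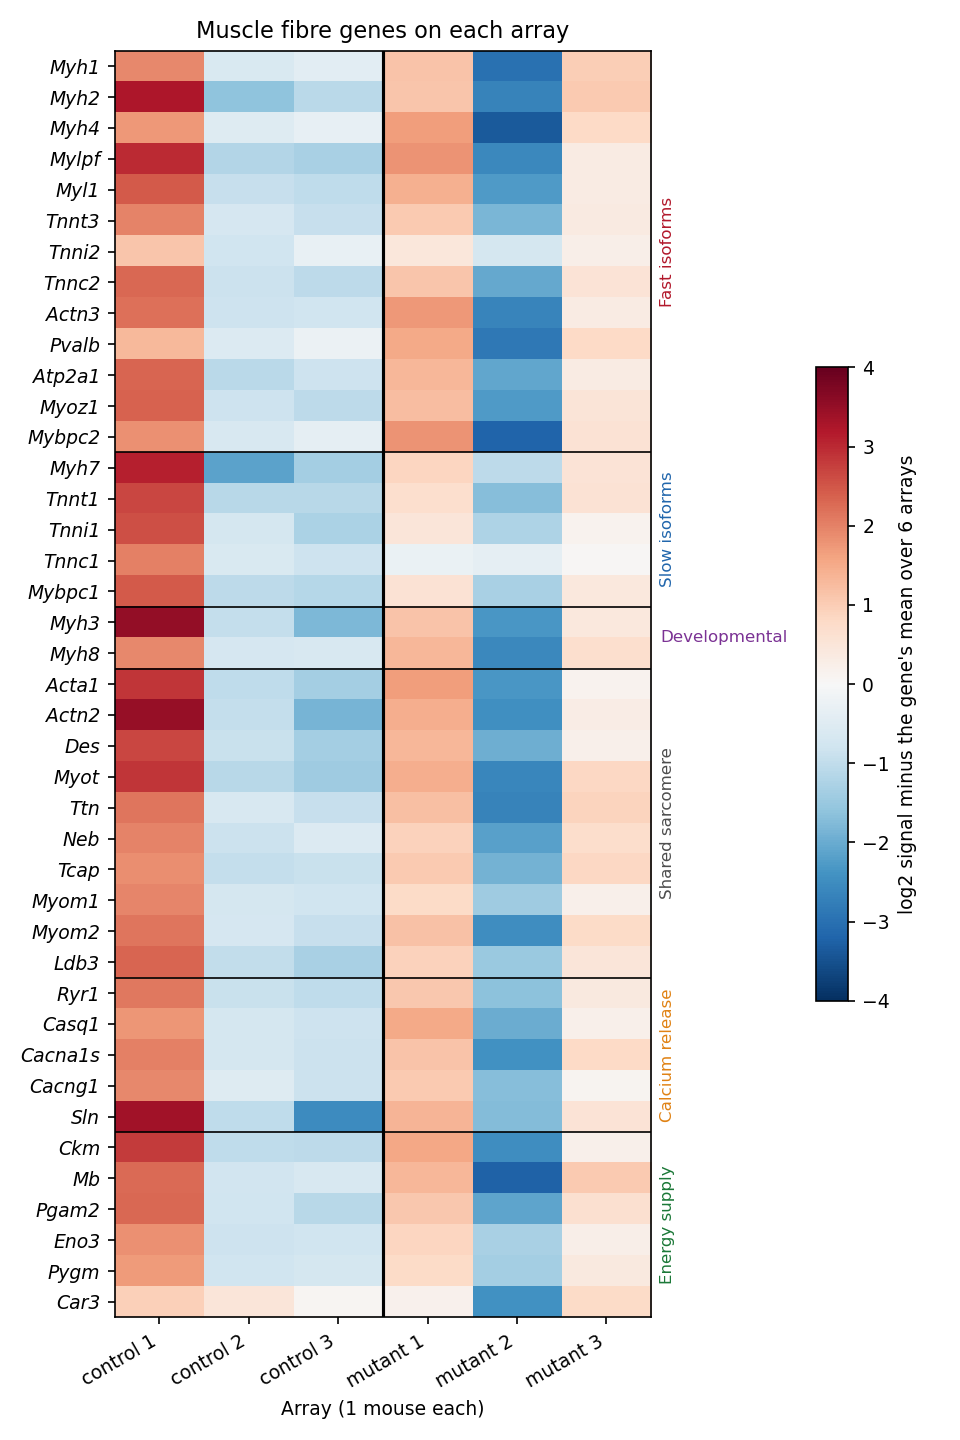
Heat map of the 41 muscle fibre genes (rows, in 6 role groups) on the 6 arrays (columns), coloured by log2 signal minus the gene's mean over the arrays. Control 1 is the highest array for 40 genes and mutant 2 the lowest for 36, and mutants 1 and 3 lie above controls 2 and 3 for all but Car3.

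Read against the whole array, the members were among the features that varied most between mice. Their range over the 6 arrays had a median of 4.44 log2 units, against 0.57 for all tested features. A range above 2 log2 units, or 4-fold, was found for 40 of 41 members and for 5.57% of all features. The range ran from 3.74-fold for Tnni2, at the percentile 93.7 of all features, to 60.2-fold for Myh2, at the percentile 99.9. Of the 100 features with the widest range, 19 were members and 14 came from lists of other muscle genes.

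**Figure D2:**
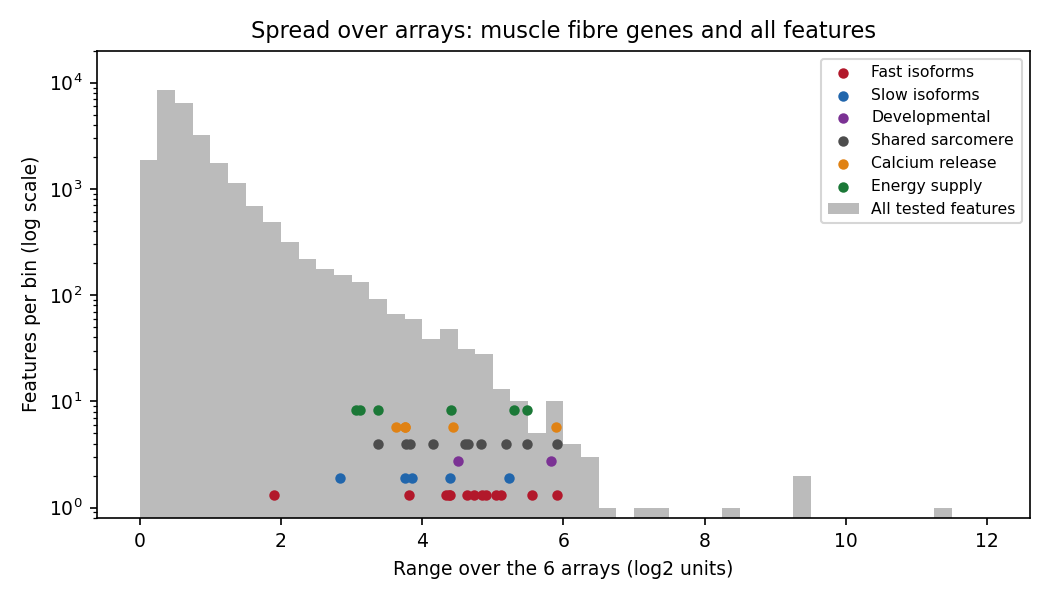
Histogram of the range over the 6 arrays (x axis, log2 units) of all 25480 tested features (grey bars, counts on a log axis), with the 41 muscle fibre genes as points coloured by role group and stacked by group, not by count. The median range is 0.57 for all features and 4.44 for the members, and Tnni2 is the only member below 2.

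Promoters are shown for 1 gene of each of 5 roles. Genes of these roles varied together over the arrays, and whether they share regulation was not tested. RefSeq promoters of the build GRCm38.p6 were matched for 30 of the 41 members, and the 250 bases before the first listed start were searched on both strands for 4 motifs of muscle genes. Capitals mark matches to the E-box CANNTG, bound by MyoD and its relatives, to the MCAT element CATTCC, bound by TEAD factors, to the CArG box, bound by SRF, or to the MEF2 site. No match overlapped another in these 5. The windows are chr11:67237562-67237811 on the plus strand (Myh4, fast), chr14:54994627-54994876 on the minus strand (Myh7, slow), chr11:67276874-67277123 on the plus strand (Myh8, developmental), chr8:123894776-123895025 on the minus strand (Acta1, thin filament) and chr7:19410844-19411093 on the plus strand (Ckm, energy supply), each read 5′ to 3′ along its gene.
Myh4: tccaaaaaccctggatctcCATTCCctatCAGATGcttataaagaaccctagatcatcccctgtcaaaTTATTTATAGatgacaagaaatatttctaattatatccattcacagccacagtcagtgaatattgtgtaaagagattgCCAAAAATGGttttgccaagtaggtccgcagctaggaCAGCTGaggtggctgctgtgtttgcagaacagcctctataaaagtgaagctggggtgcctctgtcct
Myh7: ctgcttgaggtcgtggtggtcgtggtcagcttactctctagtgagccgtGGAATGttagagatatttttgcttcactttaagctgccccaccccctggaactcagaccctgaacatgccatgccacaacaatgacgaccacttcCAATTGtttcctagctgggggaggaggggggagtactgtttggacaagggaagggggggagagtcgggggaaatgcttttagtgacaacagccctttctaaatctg
Myh8: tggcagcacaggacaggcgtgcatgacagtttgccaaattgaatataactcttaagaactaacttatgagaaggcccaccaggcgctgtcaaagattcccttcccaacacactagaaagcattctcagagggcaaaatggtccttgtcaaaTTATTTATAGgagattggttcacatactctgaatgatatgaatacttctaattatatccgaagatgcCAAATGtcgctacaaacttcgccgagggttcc
Acta1: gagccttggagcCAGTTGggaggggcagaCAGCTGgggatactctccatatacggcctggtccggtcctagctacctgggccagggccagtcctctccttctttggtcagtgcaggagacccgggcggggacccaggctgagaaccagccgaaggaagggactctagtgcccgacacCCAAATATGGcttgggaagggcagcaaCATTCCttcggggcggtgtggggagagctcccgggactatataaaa
Ckm: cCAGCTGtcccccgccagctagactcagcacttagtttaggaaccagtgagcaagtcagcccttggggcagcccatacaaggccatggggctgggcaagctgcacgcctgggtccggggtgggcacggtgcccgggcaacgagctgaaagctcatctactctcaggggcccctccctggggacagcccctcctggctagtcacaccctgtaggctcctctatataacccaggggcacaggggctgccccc

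In these windows Myh4 held matches to all 4 motifs, and Acta1 to all but the MEF2 site. Myh4 and Myh8 held the same 10 letters, TTATTTATAG, as their MEF2 match. Myh7 held 1 E-box and 1 MCAT match, and Ckm held 1 E-box. Over the 30 members matched, a MEF2 match was found in 6, or 20.0%, and in 3.01% of all 27025 promoters. A CArG box was found in 4, or 13.3%, against 1.4% of all promoters. The MCAT element was found in 9, or 30%, against 12.6%, and an E-box in 25, or 83.3%, against 66.0%. These are matches of letters only.

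The myosin heavy chains are the motors of the thick filament, and Myh4, Myh1 and Myh2 encode those of fast fibres. Myh4 read 7.19, 4.93 and 5.13 in controls and 7.13, 2.08 and 6.26 in mutants. Myh1 read 5.52, 3.00 and 3.17 in controls and 4.74, 0.62 and 4.59 in mutants. For both genes mutant 2 stood apart below the other 5 arrays, and control 1 and mutant 1 were the highest. Myh2, the chain of fast oxidative fibres, had the widest range of all members, at 4.80, -0.04 and 0.48 in controls and 2.69, -1.11 and 2.62 in mutants. Its control 1 value stood more than 2 log2 units above every other array. Myh3, Myh2, Myh1, Myh4 and Myh8 lie next to each other in that order on chromosome 11, with no other protein-coding gene between them in the RefSeq table of GRCm38.p6.

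The light chains support the myosin neck. Myl1 read 7.83, 4.46 and 4.36 in controls and 6.81, 3.10 and 5.70 in mutants. Mylpf, the fast regulatory light chain, read -0.17, -4.33 and -4.44 in controls and -1.36, -5.73 and -2.83 in mutants. Its mutant 2 value was not well above background, so its 47.2-fold range is limited by background at the low end. Controls 2 and 3 were nearly equal for both light chains and lay between mutant 2 and mutant 3.

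Fast troponin couples calcium to contraction through 3 subunits. Tnnc2, the calcium-binding subunit, read 8.47, 5.33 and 5.15 in controls and 7.29, 4.13 and 6.72 in mutants. Tnnt3, the subunit that binds tropomyosin, read 6.07, 3.41 and 3.18 in controls and 5.13, 2.27 and 4.46 in mutants. Both followed the common order. Tnni2, the inhibitory subunit, read 7.93, 6.02 and 6.53 in controls and 7.27, 6.12 and 7.06 in mutants. Its range of 1.90 was less than that of any other member, and on mutant 2 it was no lower than on control 2.

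The other 5 fast-fibre genes followed the common order, except Pvalb. Actn3, the Z-disc actinin of fast fibres, read 3.00, -0.01 and 0.01 in controls and 2.53, -1.85 and 1.14 in mutants. Pvalb, the calcium buffer parvalbumin, read 5.18, 3.34 and 3.66 in controls and 5.40, 1.02 and 4.69 in mutants, and was the member that was highest on mutant 1. Atp2a1, the calcium pump SERCA1, read 2.83, -0.58 and -0.32 in controls and 1.83, -1.56 and 0.85 in mutants. In each of these genes the mutants spanned the values of controls 2 and 3. Myoz1, a Z-disc protein that binds calcineurin, read 3.21, 0.02 and -0.20 in controls and 2.08, -1.42 and 1.36 in mutants. Mybpc2, the fast myosin-binding protein C, read 1.96, -0.52 and -0.25 in controls and 1.92, -3.08 and 0.70 in mutants, so control 1 and mutant 1 were nearly equal.

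Slow fibres use the heavy chain Myh7, which the heart also expresses. Myh7 read 3.09, -2.15 and -1.38 in controls and 0.85, -1.08 and 0.53 in mutants. Mutant 2 was here above controls 2 and 3, unlike in the fast heavy chains. Tnnc1, the slow and cardiac calcium-binding troponin, read -1.15, -3.78 and -3.98 in controls and -3.43, -3.54 and -3.12 in mutants. Its 3 mutants lay within 0.41 log2 units of each other, and control 1 alone stood above them.

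The other slow genes were nearer to the common order. Tnnt1 read 3.99, 0.19 and 0.20 in controls and 1.97, -0.40 and 1.90 in mutants. Tnni1 read -0.05, -3.34 and -3.90 in controls and -2.15, -3.87 and -2.48 in mutants. Mybpc1, the slow myosin-binding protein C, read 3.89, 0.39 and 0.28 in controls and 2.00, 0.13 and 1.86 in mutants. In all 5 slow genes control 1 exceeded mutant 1, by a median of 2.10, whereas the median step of the 13 fast genes between those arrays was 0.94. From mutant 1 to mutant 2 the median step was 1.88 in the slow genes and 3.80 in the fast genes.

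The balance of slow against fast isoforms differed between mice more than between genotypes. It was taken on each array as the mean centred log2 signal of the 5 slow genes minus that of the 12 fast genes well above background on all arrays. It was 0.51, -0.30 and -0.44 in controls and -0.83, 1.28 and -0.22 in mutants. The group means were -0.08 ± 0.51 (SD, n = 3) and 0.08 ± 1.08 (SD, n = 3), a difference of 0.15 that is smaller than either SD. That difference was -0.03 without control 3, -0.45 without mutant 2, -0.33 with limma's array weights and -0.75 among the 4 arrays of the slide's first row, so its direction was not stable.

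Mutant 2, with the lowest summed muscle signal, had the highest slow minus fast balance, but not in every pair of counterparts. Myh7 minus Myh4 was 2.32 on mutant 2 and between -1.60 and 1.38 on the other arrays. Mybpc1 minus Mybpc2 was 1.90 there and Tnnc1 minus Tnnc2 1.68, each the highest of the 6. For the other 2 troponin pairs control 1 was the highest array instead. Tnnt1 minus Tnnt3 was 0.12 on mutant 2 and 0.70 on control 1. Tnni1 minus Tnni2 was -0.54 on mutant 2 and 1.48 on control 1. On mutant 1 the balance was on the fast side in 4 of the 5 pairs, with Tnni1 minus Tnni2 at 0.03. From mutant 1 to mutant 2 Tnnc1 fell by only 0.11, while Tnnc2 went from 7.29 to 4.13, so that pair mainly followed Tnnc2. Whether the type of fibre differed between mice was not tested.

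**Figure D3:**
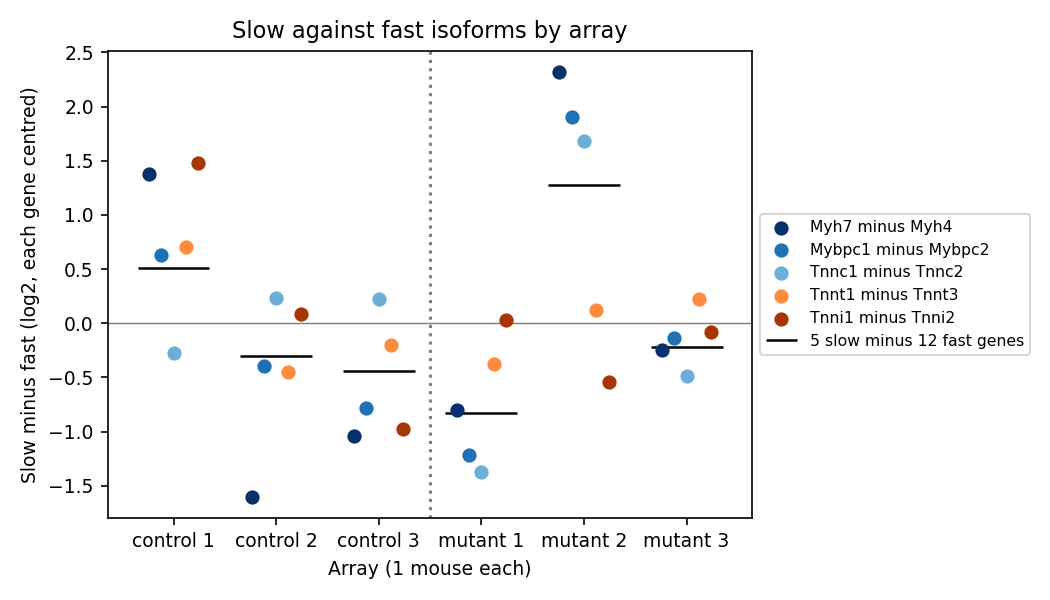
Slow minus fast log2 signal on each array for 5 pairs of counterpart genes (points, each gene centred on its mean over the arrays) and for the mean of 5 slow genes minus the mean of 12 fast genes (black lines). The black line is highest on mutant 2 at 1.28 and lowest on mutant 1 at -0.83, and the 2 orange pairs do not share the mutant 2 peak.

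Myh3 encodes the embryonic and Myh8 the perinatal heavy chain, which fibres express before the adult chains and again in regeneration. Myh8 read 8.32, 5.73 and 5.76 in controls and 7.75, 3.82 and 7.07 in mutants. Myh3 read 3.99, -0.50 and -1.34 in controls and 1.61, -1.85 and 0.88 in mutants. Both were well above background on all 6 arrays and followed the common order. Set against the 12 fast genes, the mean of the pair was highest on control 1 at 0.66 and lowest on control 3 at -0.53, while the 3 mutants lay between -0.05 and -0.04. Myh8 stayed close to Myh4, the adult chain, with a centred difference between -0.34 and 0.78, and Myh3 minus Myh4 ran more widely, from -1.48 to 1.79.

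The 10 shared sarcomere genes serve every fibre type. Acta1, the skeletal actin of the thin filament, read 6.98, 3.10 and 2.77 in controls and 5.79, 1.80 and 4.26 in mutants. Actn2, the Z-disc actinin that all fibres and the heart express, read 3.06, -1.35 and -2.26 in controls and 1.05, -2.85 and -0.12 in mutants. Each had mutants 1 and 3 above controls 2 and 3. Tcap, a titin cap protein of the Z disc, read 4.57, 1.75 and 1.80 in controls and 3.73, 0.81 and 3.53 in mutants. Myom2, a crosslinker of the M band, read 4.69, 1.86 and 1.61 in controls and 3.70, 0.04 and 3.31 in mutants.

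The other 6 were the giant filament proteins Ttn and Neb, the Z-disc proteins Myot and Ldb3, the M-band protein Myom1 and the intermediate filament protein Des. Their ranges ran from 3.38 for Myom1 to 5.48 for Myot. All 10 shared genes were highest on control 1 and lowest on mutant 2. Desmin is also made by smooth muscle.

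Depolarisation is sensed by the channel Cacna1s, which opens the release channel Ryr1. Cacna1s read 3.97, 1.25 and 1.09 in controls and 3.07, -0.47 and 2.75 in mutants. Ryr1 read 2.12, -0.88 and -1.01 in controls and 1.08, -1.63 and 0.39 in mutants. Both followed the common order, as did Casq1, which stores calcium, and Cacng1, a subunit of the sensor, with ranges of 3.76 and 3.63. Sln, sarcolipin, an inhibitor of the calcium pump, read 3.58, -0.79 and -2.31 in controls and 1.56, -1.52 and 0.77 in mutants. It was the only member for which controls 2 and 3 were more than 1 log2 unit apart, and it was lowest on control 3.

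Among the genes of energy supply, Ckm, the muscle creatine kinase, read 3.95, 0.12 and 0.11 in controls and 2.71, -1.35 and 1.35 in mutants, and is shown because its promoter is printed. Eno3, the muscle enolase, read 5.96, 3.29 and 3.34 in controls and 4.97, 2.84 and 4.35 in mutants. Pgam2, the muscle phosphoglycerate mutase, read 4.24, 1.14 and 0.84 in controls and 3.04, -0.17 and 2.59 in mutants. These followed the common order, as did Pygm, which breaks down glycogen. Mb, the oxygen carrier myoglobin, did too, and its range of 5.49 was the widest of the 6.

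Car3, a carbonic anhydrase of slow fibres and of fat cells, departed from that order. It read 3.50, 3.04 and 2.64 in controls and 2.72, 0.12 and 3.31 in mutants. Only mutant 2 stood apart, and the other 5 arrays lay within 0.86 of each other. Of 10 adipocyte markers, 9 were tested. The mean centred signal of the 8 on all arrays was 0.68, -0.11 and -0.14 in controls and 0.43, -1.46 and 0.60 in mutants, also with mutant 2 apart from the rest. Adipoq, adiponectin, read 0.07, -1.08 and -1.72 in controls and -0.64, -3.83 and -0.88 in mutants. The part of fat in the Car3 values was not tested.

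**Figure D4:**
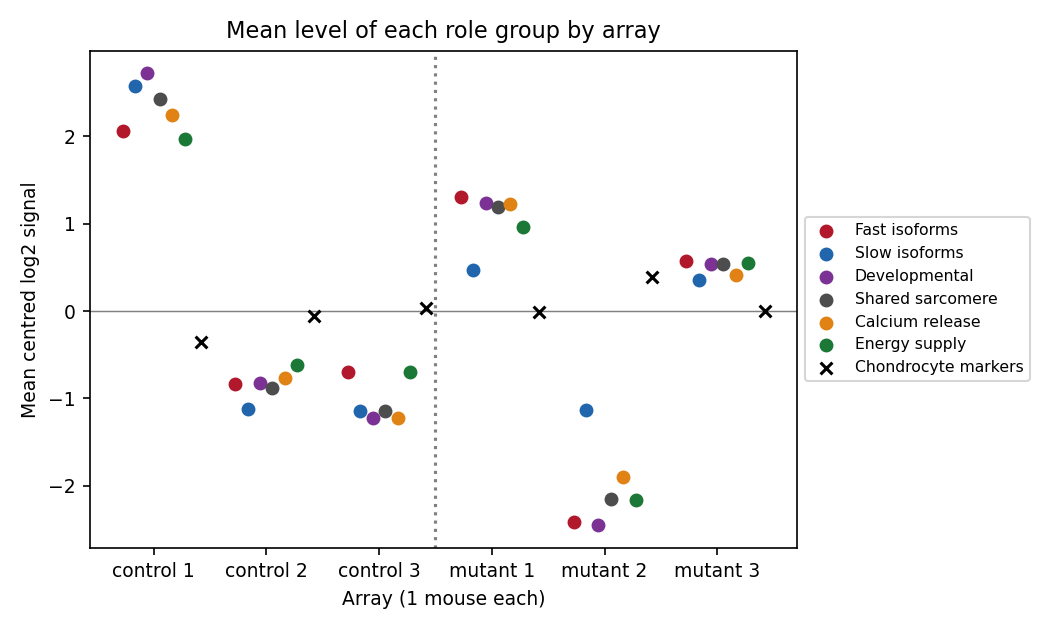
Mean log2 signal of each role group on each array (points, each gene centred on its mean over the arrays; genes well above background on all arrays) and of 13 chondrocyte markers (crosses). Muscle groups span from 2.72 on control 1 to -2.45 on mutant 2, slow isoforms on mutant 2 sit at -1.13 apart from the other groups, and the crosses stay between -0.35 and 0.39.

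Between genotypes no member differed beyond the spread between mice. Limma called 0 of 41 at an adjusted p below 0.05 (0% of all features) and 0 of 41 at an unadjusted p below 0.05 (3.43% of all features). The smallest unadjusted limma p was 0.254, for Car3, and the adjusted p ran from 0.987 to 0.998. The 2 groups overlapped for all 41 members, whereas 3.75% of all features had every mutant below every control and 5.19% every mutant above. The SEs ran from 0.54 to 1.59 log2 units, so differences of several fold would not have been detectable with 3 mice a group.

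The estimated differences, mutant minus control, were below 0 for 39 of 41 members, where 40% of all features were below 0. Their median was -0.33, against 0.04 for all features, and was -0.35 for the fast and -0.30 for the slow genes. That common sign rested on single mice. Without control 1 it was below 0 for 1 member with a median of 0.76, and without mutant 2 for 2 members with a median of 0.71. It was below 0 for 2 members, with a median of 1.00, when mutant 1 was compared with the 3 controls on the slide's first row. With limma's array weights the median was 1.51 and 16 members had an unadjusted p below 0.05, with 0 at an adjusted p below 0.05. These weights raised counts over all features too. At an unadjusted limma p below 0.05 and at least 2-fold, 205 were higher and 342 lower, against 29 and 159 without weights. The share of all features at an unadjusted p below 0.05 with weights was not counted.

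Single genes show how wide the intervals were. Myh4 differed by -0.59 (SE 1.36, 95% interval -3.87 to 2.68) and Myh2 by -0.35 (SE 1.57). Myh7 differed by 0.25 (SE 1.38, 95% interval -3.07 to 3.56), and Tnnc1 by -0.39 (SE 0.73). Myh3 and Myh8 differed by -0.50 and -0.39, with SEs of 1.55 and 1.18. Acta1 differed by -0.33 (SE 1.41), and Tcap by -0.02 (SE 1.05). Ryr1 stood at -0.13, Sln at 0.11, Ckm at -0.49 and Pvalb at -0.36, each with an SE above 1. Tnni2, with the least spread, differed by -0.01 (SE 0.54, 95% interval -1.31 to 1.28). Car3 had the largest difference, -1.01 (SE 0.80, 95% interval -2.95 to 0.93), which was -0.04 without mutant 2.

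**Figure D5:**
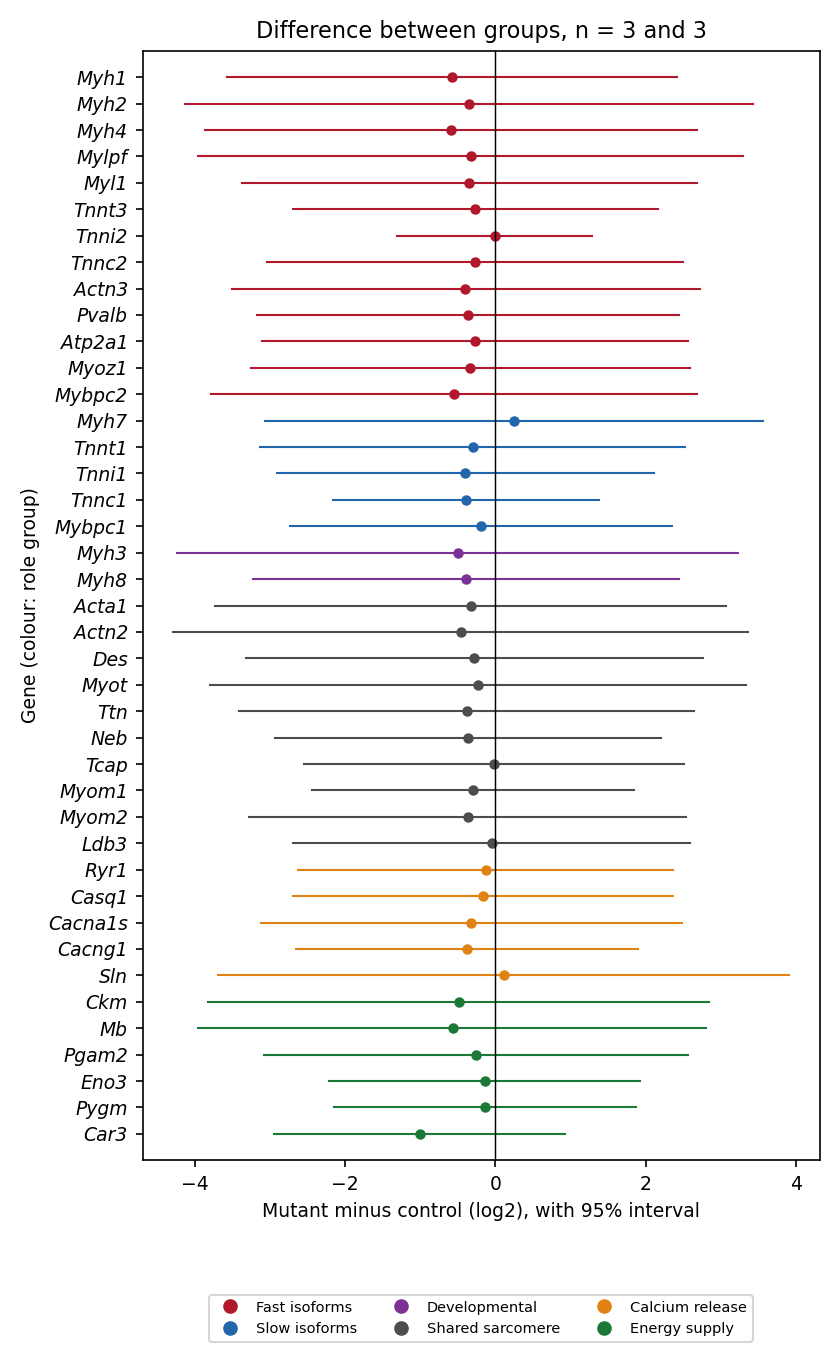
Difference between the 3 mutants and the 3 controls (points, log2, mutant minus control) with 95% intervals from the limma fit (lines) for the 41 muscle fibre genes, coloured by role group. Every interval crosses 0, and the interval of Tnni2, from -1.31 to 1.28, is the narrowest.

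Other genes of the muscle programme were read from 5 further lists with 78 genes, of which 74 were tested. Of these, 0 passed the adjusted threshold, 1 had an unadjusted p below 0.05 in the lower direction (Ucp3) and 0 in the higher direction. The highest array was control 1 for 61, and 51 had a range above 2 log2 units. Among 14 metabolic genes Ckmt2, the mitochondrial creatine kinase of muscle, had the widest range, at 7.0. It read 2.60, -2.21 and -2.61 in controls and 0.92, -4.40 and 0.06 in mutants, so it followed the common order. Cox6a2 and Ampd1, a respiratory chain subunit and a deaminase of muscle, had ranges of 5.05 and 4.97.

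Among the other sarcomere genes Csrp3 had a range of 5.51. Nrap, at 5.93, was not well above background on control 3 and mutant 2, so its range is limited by background. In the list of calcium-handling genes Casq2, Srl and Trdn had ranges from 3.89 to 4.87. The acetylcholine receptor subunit Chrna1, which lies at the junction with the nerve, read -0.60, -3.12 and -3.54 in controls and -1.30, -4.32 and -1.98 in mutants. Musk, the kinase that organises that junction, was well above background on control 1 and mutants 1 and 3 only. Those are the 3 arrays with the highest fibre signal. Chrnd, another receptor subunit, had a range of 3.69, limited by background because controls 2 and 3 were not well above it.

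Of 14 myogenic regulators and precursor genes, 13 were tested, 6 had a range above 2 log2 units and 8 were highest on control 1. Myog, the factor of differentiating myocytes, read 0.45, -2.79 and -3.12 in controls and -1.09, -4.80 and -1.21 in mutants. Myf6, the factor of mature fibres, had a range of 6.26 and was not well above background on mutant 2. Mymx, a protein of myoblast fusion, had a range of 4.28. These 3, the widest of the list, were highest on control 1 and lowest on mutant 2. Myf5 was well above background on 0 of 6 arrays. Mef2a, Mef2c and Mef2d, regulators that many tissues use, were highest on mutant 2, with ranges of 0.40, 0.91 and 0.62.

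Markers of the neighbouring tissues were set beside these values. Cardiac muscle shares genes with slow fibres. Of 9 cardiac markers, Myh6, Tnnt2, Tnni3 and Nppa were well above background on all 6 arrays, Nppb and Mybpc3 on 5, and Myl7, Ryr2 and Hcn4 on 0. The mean centred signal of the 4 on all arrays was 0.74, -0.16 and -0.14 in controls and 0.02, -0.69 and 0.23 in mutants. Tnnt2, a cardiac troponin that immature skeletal fibres also express, had the widest range of them at 3.79 and was highest on control 1 and lowest on mutant 2. Smooth muscle markers, of which 7 of 8 were tested, read 0.42, -0.26 and -0.34 in controls and 0.30, -0.50 and 0.38 in mutants. In both means control 1 and mutants 1 and 3 lay above controls 2 and 3, and mutant 2 was lowest. The fibre genes had that order too, over wider ranges. Not every gene of the 2 lists shared it. Mutant 2 was the lowest array for 4 of 6 tested cardiac markers and 3 of 7 tested smooth muscle markers. Myh6 read -3.08 on mutant 1, below -2.10 and -2.03 on controls 2 and 3.

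Tendon markers read 1.12, -0.37 and -0.45 in controls and -0.05, -0.03 and -0.23 in mutants, with control 1 the highest. Their genes differed in order. Thbs4 and Kera were higher on mutants 1 and 3 than on controls 2 and 3 and lowest on mutant 2. Egr1, Mkx and Fmod were instead higher on mutant 2 than on mutants 1 and 3.

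Control 1 was also the highest array for marrow and blood, with mean centred signals of 2.06 for neutrophil and 1.81 for erythroid markers. Control 2 was second in both, at 1.1 and 0.82, although its muscle signal was low, and mutant 1, second in muscle, read -1.48 and -0.84. Mutant 2 was lowest for endothelial and osteoblast markers as well, at -0.99 and -1.02. Schwann cell and epidermal markers stayed between -0.16 and 0.20 on all arrays. Xist, a transcript of females, read 1.88 on control 1 and 2.05 on mutant 3 and -3.66 or less on the others. Ddx3y, a transcript of males, read -7.34 on control 1, -4.57 on mutant 3 and between 2.02 and 2.15 on the others. The part of these tissues and of sex in the muscle values was not tested.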

How the data were processed

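RNA of each mouse was labelled and hybridised to 1 Agilent 1-colour array, and the submitters' processing notes name Agilent Feature Extraction, version 10.7.1.1, for reading the scans. The labels name the dye as Cy5 in one field and Cy3 in the protocol; 1 channel was scanned. The deposited files hold intensity values per spot: a background-subtracted processed signal, and unprocessed medians of spot and local background, none normalized between arrays. Per the file headers, the design refers to mm9. The authors' deposited value table is a ratio to the 75th percentile of each array, as read from its values. How it was made is not given in the sources used here.

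Accessions of the 55681 non-control probes were matched to RefSeq symbols of GRCm38.p6 for 27656 probes. Control spots and spots marked as outliers were left out. The log2 processed signal was scaled to each array's 75th percentile, and spots of a probe were averaged. Each gene took its probe with the highest mean processed signal, kept when well above background (more than 50% of spots) on 3 of 6 arrays. Among the 11 members with several probes, 1, Ttn, had probes that differed in sign. Probes of related heavy chain genes may share signal, which was not tested. The comparison of groups used limma 3.58.1 under R 4.3.3 (eBayes, two-sided, Benjamini-Hochberg over all 25480 features); the script was tested on simulated data. SEs rest on 4 residual degrees of freedom plus a prior of 2.42. No array spot was saturated, and 3 arrays a group limit the precision. A group mean signal is the mean over a list's genes well above background on all 6 arrays, each centred on its own mean.

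The members and gene lists were chosen with earlier results of these data known. Values on each array are given for all isoform genes, for the 3 members with the highest mean signal in each other group, for the 5 widest ranges, and for Ckm, chosen after its values were seen. The 3 genes of each further muscle list with the widest range were named, except 1 that is not reported here. Ucp3, the Mef2 genes, Myf5, Adipoq, the single cardiac and tendon markers, Xist and Ddx3y were chosen after their values were seen. So were the 14 members whose differences are printed. Alternatives were normexp background correction, other scaling, no filter, all probes of a gene, array weights, the deposited table, the slide's first row, the replicate number as a block and leaving out each array; the muscle fibre signal as a covariate was added after the data were seen.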

Additional observations from a re-analysis of the deposited data

How the results depend on the processing

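With 3 mice a group and ranges of several log2 units within each, no alternative called a member at an adjusted p below 0.05. The deposited table, the median over the probes of a gene, no filter and normexp with quantile normalization left the signs of all 41 members as they were. Median scaling turned Tnni2 to 0.01, and normexp with percentile scaling turned Tcap to 0.02. The replicate numbers gave no clear sign of pairing, with correlations of 0.205, 0.0592 and -0.164 between mice of the same number. The mutant that correlated best carried the same number for controls 1 and 2 but not for control 3. With the replicate number as a block, the median difference was -0.33 and 0 features were called.

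Array weights called 4 features in all and 0 members, put 16 members at an unadjusted p below 0.05 and 1 below 0, and gave a median of 1.51 over the members and 1.56 over the fast genes. The share of all features at that unadjusted p was not counted with these weights. Differences that turned from below to above 0 were then Acta1 2.00, Ckm 1.86, Myh2 2.06, Myh3 1.65, Myh4 1.55, Myh8 1.49, Pvalb 1.49, Ryr1 1.51, Tcap 1.56, Tnnc1 0.26 and Tnni2 0.91. Signs were kept by Myh7 at 2.32, Sln at 2.04 and Car3 at -0.32. On the first row of the slide, with mutant 1 alone assumed to vary like the controls, 2 members were below 0 and the slow minus fast balance was -0.75. Differences that turned to above 0 there were Acta1 1.51, Ckm 1.32, Myh2 0.94, Myh3 0.89, Myh4 1.38, Myh8 1.15, Pvalb 1.34, Ryr1 1.01, Tcap 1.02 and Tnni2 0.44. Signs were kept by Myh7 at 1.00, Sln at 1.40, Tnnc1 at -0.46 and Car3 at -0.34. The cause was not tested.

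Leaving out 1 mouse at a time gave between 1 and 41 members below 0, between 0 and 2 at an unadjusted p below 0.05, and a median between -0.99 and 0.76 over all members, between -1.15 and 0.77 over the fast genes and between -0.90 and 0.96 over the slow genes. The slow minus fast balance lay between -0.45 and 0.61. The differences ran from -1.26 to 1.02 for Acta1, -1.39 to 0.79 for Ckm, -1.24 to 1.18 for Myh2, -1.53 to 1.13 for Myh3, -1.58 to 0.94 for Myh4, -0.75 to 1.86 for Myh7 and -1.16 to 0.81 for Myh8. They ran from -1.21 to 0.98 for Pvalb, -0.69 to 0.90 for Ryr1, -1.13 to 1.82 for Sln, -0.54 to 0.92 for Tcap, -0.90 to 0.52 for Tnnc1, -0.41 to 0.54 for Tnni2 and -1.64 to -0.04 for Car3.

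Over all features, 29 were higher and 159 lower at an unadjusted limma p below 0.05 and at least 2-fold. The counts were 205 and 342 with array weights, 185 and 314 with no filter, 0 and 68 with normexp and percentile scaling, and 0 and 52 with normexp and quantile normalization. On the first row 47 were higher. With the replicate block they were 29 and 122, and with the muscle fibre signal as a covariate, added after the data were seen, 27 and 142, with 0 features called. Leaving out 1 mouse gave 28 to 65 higher and 61 to 356 lower.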

Other observations

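Among the 100 features with the widest range over the arrays, 55 had a symbol outside every list used here. Those named next were picked with their values in view and include further genes known from muscle. Ankrd1, a stretch-responsive protein of the sarcomere, had a range of 6.16, Apobec2 of 5.80, the muscle translation factor Eef1a2 of 5.79 and the tropomyosin Tpm1 of 4.61. Smtnl1 and Asb2 had ranges of 5.51 and 5.09. Each of these 6 was highest on control 1, and all but Apobec2 were lowest on mutant 2. The eosinophil granule genes Epx and Prg2, with ranges of 6.47 and 5.70, were highest on control 1 and lowest on mutant 1 instead.

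The 13 further probes of 11 members moved the difference between groups by at most 0.47 log2 units. Taking the largest such shift of each of the 11 members, the median was 0.14. For Myh8 the second probe read 0.82, -2.58 and -2.87 in controls and -0.63, -4.05 and -1.32 in mutants. It shared the order of the first probe except between controls 2 and 3. For Tnnt1 the second probe was not well above background on mutant 2 and had a range of 5.07, against 4.39 for the first. In Ttn 1 of 4 probes, made for a different transcript accession, had a difference of 0.09 where the one used had -0.38.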
